A study of Homo sapiens with 8 samples.

Results

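The AP-1 family comprises the transcription factors FOS, FOSB, FOSL1, FOSL2, JUN, JUNB, JUND, ATF3, BATF and MAFF, and its 10 members were chosen by gene symbol, matched to the rows of the expression table through their Entrez gene identifiers. Of these, 9 members were analysed among 17131 genes, and all 9 entered the test across 12434 genes. BATF was not analysed here. RNA was sequenced from HaCaT cells, an established line of human keratinocytes that grows without end in culture, in 8 libraries with 4 in each of 2 groups. The labels give the genotype as wild type for every library, and both groups received M5, a cocktail of 5 cytokines that was left on the cells for 24 h (oncostatin M, TNF-α, IL-1α, IL-17A and IL-22, each at 10 ng/mL per the study's methods). One group was also given OTS514, an inhibitor of the kinase TOPK, at 10 nM from 12 h before M5, and the comparison asks which genes respond to that inhibitor in stimulated keratinocytes. The labels disagree on which group this was. The title M5_O5, borne by 4 libraries, reads as M5 with OTS514, yet their treatment field states that they had no treatment, and the field reads TOPK inhibitor for the 4 with the title M5. Every direction is therefore given between the titles. If the titles hold, "lower in M5_O5" means lower with OTS514, and if the treatment field holds, it means higher with OTS514. All libraries come from 1 cell line, no culture without cytokines was analysed here, and nothing states that the replicates were separate cultures, so that p-values measure only the spread between these libraries, which may be technical.

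AP-1 is a dimer of basic leucine zipper proteins. JUN, JUNB and JUND pair with each other or with the FOS proteins, whereas FOS, FOSB, FOSL1 and FOSL2 bind DNA only with a partner, usually a JUN protein. ATF3 pairs with JUN proteins or with itself, BATF pairs mainly with JUN proteins, and MAFF is a small MAF protein that has no activation domain of its own. In keratinocytes AP-1 is known as a regulator of proliferation, of cornified envelope genes and of matrix metalloproteinases, and many of its genes are induced within minutes by growth factors, cytokines or stress through MAP kinases.

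The 250 bases before the transcription start were read from RefSeq (GRCh38.p14) for the 9 members with an entry, which had 11 promoters between them. FOSL1 had no entry, so that these 9 include BATF and are not the 9 members analysed for expression. Both strands were searched for TGACNTCA, the 8-base element that JUN:ATF dimers prefer, for TGANTCA, the 7-base element of FOS:JUN dimers, and for the CArG box that SRF binds. No 8-base site can hold a 7-base site. TGACNTCA was in the promoters of 4 of the 9 members and in 6.87% of all 35116 promoters. TGANTCA was in 0 of the 9 members' promoters and in 6.57% of all promoters, and the CArG box was in 0 of 9 and in 1.16%. These counts hold for the 250 bases only, and sites further upstream were not searched. The 4 sites are shown because JUN and MAFF passed the test between the groups whereas ATF3 and JUND, with the same letters, did not. Each window has 60 bases in the direction of the gene, with the site in capitals. The site began 67 bases before the start in JUN (chr1:58784081-58784140, minus strand), 123 bases before it in ATF3 (chr1:212565258-212565317, plus strand), 200 bases before it in JUND (chr19:18281789-18281848, minus strand) and 54 bases before it in MAFF (chr22:38201914-38201973, plus strand). A match is a description of the letters and not evidence of binding.
JUN: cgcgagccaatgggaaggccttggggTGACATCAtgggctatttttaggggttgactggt
ATF3: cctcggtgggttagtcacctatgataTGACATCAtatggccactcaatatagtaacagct
JUND: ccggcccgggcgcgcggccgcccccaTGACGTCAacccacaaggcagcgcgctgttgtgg
MAFF: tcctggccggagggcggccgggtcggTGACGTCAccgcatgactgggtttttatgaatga

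The libraries held 13708044 to 16922673 estimated counts each, the smallest being M5 replicate 1. Members were covered by 60 to 13112 counts per library. All 12 keratinocyte markers were found, each at 277 CPM (counts scaled to a common library size by the TMM method) or more in every library. Among markers of other cell types, COL1A1 reached 30.4 to 54.5 CPM and CD14 30.8 to 39.0 CPM, PTPRC was at 0 in every library, and each of the other 13 analysed stayed at or below 1.96 CPM. The summed level of the keratinocyte markers was 22405 to 25203 CPM in M5_O5 and 27264 to 30910.2 CPM in M5. The fibroblast markers summed to 33.0 to 36.6 CPM in M5_O5 and 43.1 to 58.3 CPM in M5, and COL1A1 passed as lower. Of the 12 keratinocyte markers, 8 (66.7%) passed the test as lower in M5_O5 and 0 as higher, with a median log2 difference of -0.29. Over all genes 17.6% were lower and 19.5% higher. Among the 3109 genes at a log2 CPM of 6.07 or more, where all 12 markers lie, 38.2% were lower and 8.78% higher. The AP-1 members had a similar share lower (55.6%) and median (-0.27). The part of these markers in the differences described here was not tested.

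Of the 9 AP-1 members, 5 were lower in M5_O5 (FOSB, JUN, FOSL1, FOSL2 and MAFF), 0 were higher and 4 did not pass (FOS, JUNB, JUND and ATF3). The differences were modest: the 5 that passed stood at 65.3% to 82.9% of their M5 level, and none reached 2-fold. Passing means a Benjamini-Hochberg adjusted p under 0.05 in edgeR's quasi-likelihood test over all genes tested. For the higher direction the count was 0 also at an unadjusted p under 0.05 in edgeR, with DESeq2 and with limma. By the adjusted rule 37.1% of all genes passed, 17.6% as lower and 19.5% as higher in M5_O5, and 55.6% of the members were lower. With a 2-fold threshold added, 3.2% of all genes passed. The median log2 difference was -0.27 over the members and 0.01 over all genes. Genes at a high level were more often lower in this comparison. Of the 3109 genes at a log2 CPM of 6.07 or more, a split made after seeing the data, 47% passed, 38.2% as lower and 8.78% as higher, and of the 5 members at such a level 4 were lower. The balance of all genes also moved with the scaling. With TMM 52.5% of the passing genes were higher, against 66.8% with upper-quartile scaling, 79.3% with library size only and 81.1% on the TPM scale (counts scaled by transcript length and library, with 1 added before log2), and the median of all genes moved from 0.01 to 0.07, 0.13 and 0.12. FOSB, JUN, FOSL1 and FOSL2 passed as lower under each of these scalings. MAFF was lower under each but passed only with TMM and upper-quartile scaling among them.

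**Figure D1:**
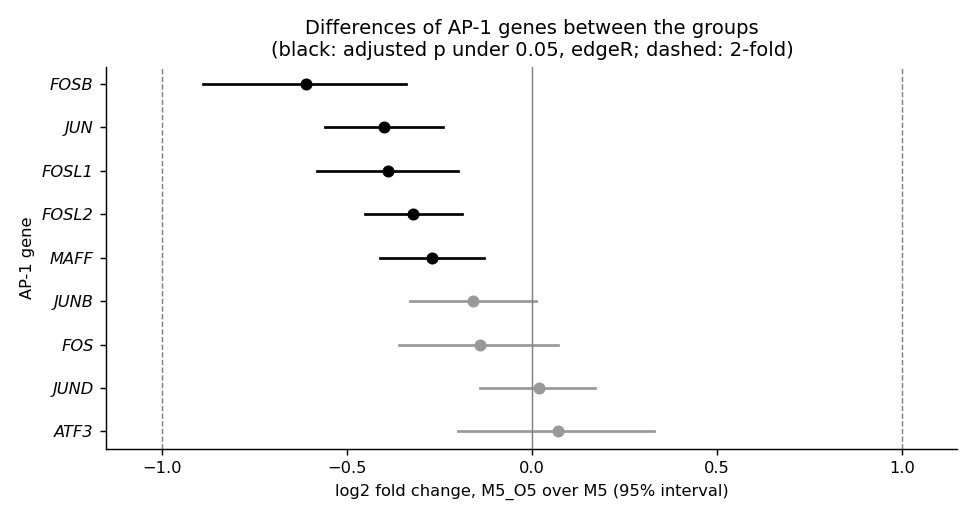
Log2 difference in level (M5_O5 minus M5) of the 9 analysed AP-1 members with its 95% confidence interval from edgeR, 4 libraries per group. The 5 members that passed lie between -0.61 and -0.27, whereas the intervals of FOS, JUNB, JUND and ATF3 include 0.

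Among the FOS proteins, FOSB, FOSL1 and FOSL2 were lower in M5_O5 and FOS did not pass. FOSB (Entrez 2354), an immediate-early FOS protein with an activation domain, had the largest difference of the family and the lowest level. Its level in M5_O5 replicates 1 to 4 was 3.95, 3.45, 4.98 and 4.10 CPM, and in M5 replicates 1 to 4 it was 6.20, 6.20, 6.52 and 6.29 CPM. The groups did not overlap, and the M5 libraries lay close together. The log2 difference was -0.61 (SE 0.13, 95% interval -0.89 to -0.34, edgeR adjusted p = 0.00212), or 65.3% of the M5 level. It rested on 60 to 101 counts per library, far fewer than for any other member. On the log2(TPM + 1) scale, where the added 1 weighs on a level this low, it was -0.34.

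FOSL1 (Entrez 8061), which encodes FRA-1, a FOS protein without the C-terminal activation domain of FOS, was higher in level than FOSB but differed by less. It reached 94.7, 119, 119 and 116 CPM in M5_O5 and 122, 157, 160.2 and 149.9 CPM in M5. Replicate 1 was the lowest library of each group, and the lowest M5 library still exceeded the highest M5_O5 library. This was a log2 difference of -0.39 (SE 0.09, 95% interval -0.58 to -0.20, edgeR adjusted p = 0.0034).

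FOSL2 (Entrez 2355), which encodes the related FRA-2, had 562, 637, 625 and 599 CPM in M5_O5 and 689, 790.4, 775 and 766 CPM in M5. Again the groups did not overlap and replicate 1 was the lowest of each. FOSL2 thus had a log2 difference of -0.32 (SE 0.06, 95% interval -0.45 to -0.19, edgeR adjusted p = 0.00123), or 80.2% of the M5 level. With library size only it was -0.20, and with the mean trend of the differences with expression level removed from all genes, an alternative added after seeing the data, it was -0.15, and it passed in both.

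FOS (Entrez 2353), the first described partner of JUN and usually a transient early-response gene, reached 36.3, 50.7, 53.2 and 48.8 CPM in M5_O5 and 46.0, 55.0, 55.0 and 52.3 CPM in M5. The groups overlapped, and the lowest library was M5_O5 replicate 1. The log2 difference of -0.14 did not pass (95% interval -0.36 to 0.07, edgeR adjusted p = 0.29), and without that library it was -0.03.

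**Figure D2:**
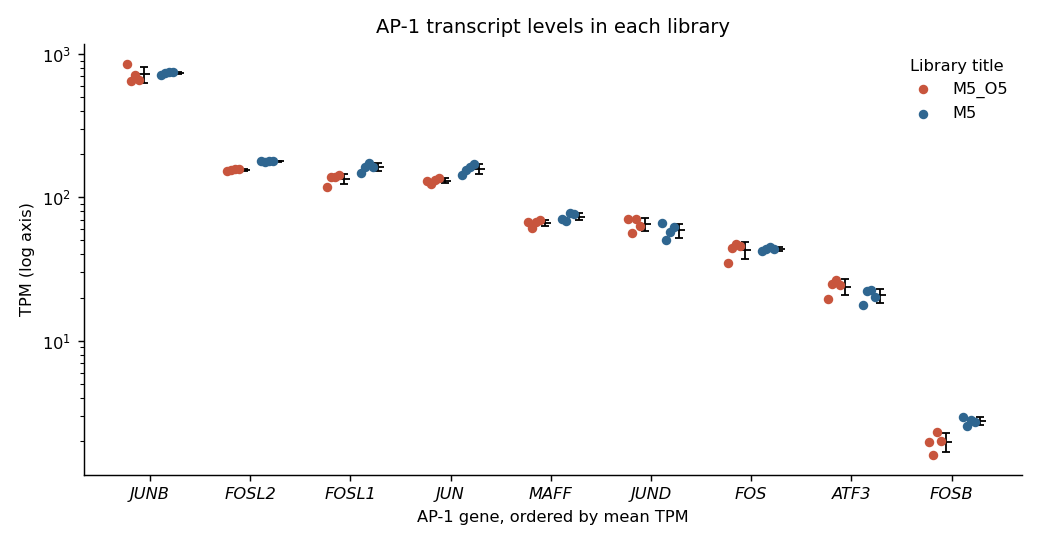
Level of each AP-1 member in TPM, on a log axis, in the 8 libraries, 4 titled M5_O5 and 4 titled M5. Points are libraries, and the bars give the mean and SD. On this scale the groups are apart for FOSB, FOSL1, FOSL2 and JUN and overlap for FOS, JUNB, JUND, ATF3 and MAFF. The MAFF groups are apart in CPM only.

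Among the JUN proteins, 1 of 3 passed. JUN (Entrez 3725), the strongest activator of these and a gene known to be activated by its own protein, differed by about as much as FOSL1. Its level was 225, 233, 243 and 239 CPM in M5_O5 and 257, 319.8, 326 and 339.9 CPM in M5. The M5_O5 libraries lay within a narrow range, and M5 replicate 1 was the nearest M5 library to them. The log2 difference was -0.40 (SE 0.08, 95% interval -0.56 to -0.24, edgeR adjusted p = 0.00095), or 75.7% of the M5 level. With the level trend removed it was -0.26 and passed.

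JUNB (Entrez 3726), which can oppose JUN on shared targets and whose loss together with JUN in mouse epidermis gives a psoriasis-like disease, had 762, 621, 679 and 597 CPM in M5_O5 and 654, 788, 767 and 759.6 CPM in M5. M5_O5 replicate 1 lay at the level of the M5 libraries, and M5 replicate 1 lay within the range of M5_O5. The log2 difference of -0.16 did not pass (SE 0.08, 95% interval -0.33 to 0.01, edgeR adjusted p = 0.135). Without M5_O5 replicate 1 it was -0.23 and without M5 replicate 1 it was -0.22, and it then passed (edgeR adjusted p = 0.0253 and 0.0222). With the level trend removed it was 0.01.

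JUND (Entrez 3727), usually the steadiest of the JUN genes, reached 66.4, 57.4, 71.1 and 60.6 CPM in M5_O5 and 64.5, 57.8, 62.7 and 67.7 CPM in M5. The ranges of the groups overlapped almost fully. The log2 difference was 0.02 (95% interval -0.14 to 0.17, edgeR adjusted p = 0.889), and its sign changed when M5_O5 replicate 1, M5_O5 replicate 3 or M5 replicate 2 was left out (-0.04 to 0.06 over the 8 libraries left out in turn). A TGACGTCA site lies in its promoter too.

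ATF3 and MAFF, the members outside the FOS and JUN groups, differed in outcome. MAFF (Entrez 23764) had 81.5, 80.6, 86.1 and 85.6 CPM in M5_O5 and 88.9, 99.3, 108 and 106 CPM in M5. The groups did not overlap in CPM, although they did on the TPM scale (61.6 to 69.3 in M5_O5 and 68.3 to 77.4 in M5). MAFF had a log2 difference of -0.27 (SE 0.06, 95% interval -0.41 to -0.13, edgeR adjusted p = 0.00473). With library size only as the scaling it was -0.15 and did not pass (edgeR adjusted p = 0.0577), and on the TPM scale it was -0.14 (limma adjusted p = 0.0977). ATF3 (Entrez 467), a stress-induced factor that represses as a homodimer, reached 19.2, 26.1, 27.5 and 24.4 CPM in M5_O5 and 17.8, 26.3, 25.5 and 23.0 CPM in M5. Replicate 1 was the lowest of both groups, and the groups overlapped. ATF3 had a log2 difference of 0.07 (95% interval -0.20 to 0.33, edgeR adjusted p = 0.698), and it turned to -0.04 without M5 replicate 1.

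Each member was also tested alone. In an exact two-sided permutation test of CPM, FOSB, FOSL1, FOSL2, JUN and MAFF each had p = 0.0286, the smallest that 4 libraries against 4 can give, whereas FOS, JUNB, JUND and ATF3 had exact permutation p = 0.343, 0.171, 0.914 and 0.6. These 5 members are those whose groups did not overlap with M5_O5 lower, a pattern seen in 15.8% of all genes tested (33.6% had groups that did not overlap in either direction). Leaving out each library in turn left 5 or 6 members lower, and 6 only where JUNB joined them.

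**Figure D3:**
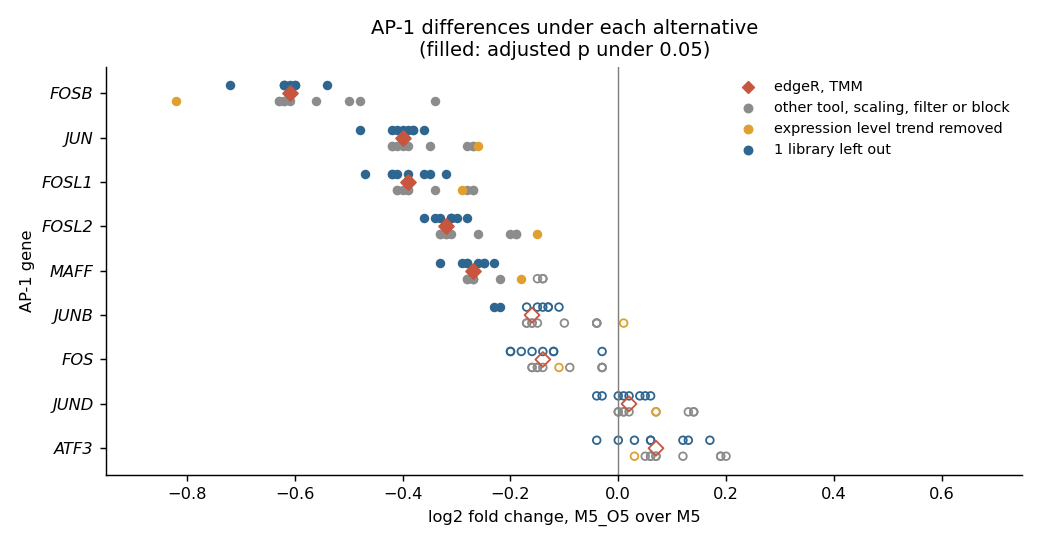
Log2 difference (M5_O5 minus M5) of each AP-1 member in the reported fit and under the 18 alternatives, with filled points for adjusted p under 0.05. FOSB, JUN, FOSL1 and FOSL2 pass under all 18, MAFF under 15, and JUNB only without M5_O5 replicate 1 or M5 replicate 1.

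Levels were compared between members in TPM, which divides by transcript length. JUNB had by far the highest level, with a mean of 727 TPM over the 8 libraries. FOSL2 followed at 167, FOSL1 at 148 and JUN at 144 TPM. FOSL1 and JUN overlapped in both groups, FOSL1 being higher in 6 of the 8 libraries, so that their order is not settled. MAFF (69.8 TPM) and JUND (61.9 TPM) overlapped in M5_O5. FOS had 43.3, ATF3 22.3 and FOSB 2.36 TPM, and these and the remaining neighbours did not overlap within either group. The order is a description of RNA and not of protein.

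The 9 members summed to 1255 to 1451 TPM in M5_O5 and to 1383 to 1465 TPM in M5, so that the family total overlapped between the groups on this scale. Summed in CPM, the scale of the tests, the total was 1775 to 1908 in M5_O5 and 1946 to 2299.5 in M5 and did not overlap. For 8 of the 9 members the share of the TPM total overlapped. JUNB made up 53.5% ± 3.78 (SD, n = 4) of the total in M5_O5 and 51.3% ± 0.576 in M5, the highest share being 59.1% in M5_O5 replicate 1. JUN, JUNB and JUND together made up 66.0% to 72.9% in M5_O5 and 65.8% to 66.8% in M5, and FOS, FOSB, FOSL1 and FOSL2 together 21.1% to 27.1% and 26.6% to 27.3%. FOSB was the 1 member whose share did not overlap, at 0.146% ± 0.0193 in M5_O5 and 0.192% ± 0.0147 in M5. The share of a member depends on JUNB, the largest term of the sum, and M5_O5 replicate 1 had both the highest JUNB level in TPM and the lowest FOS and FOSL1 levels.

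**Figure D4:**
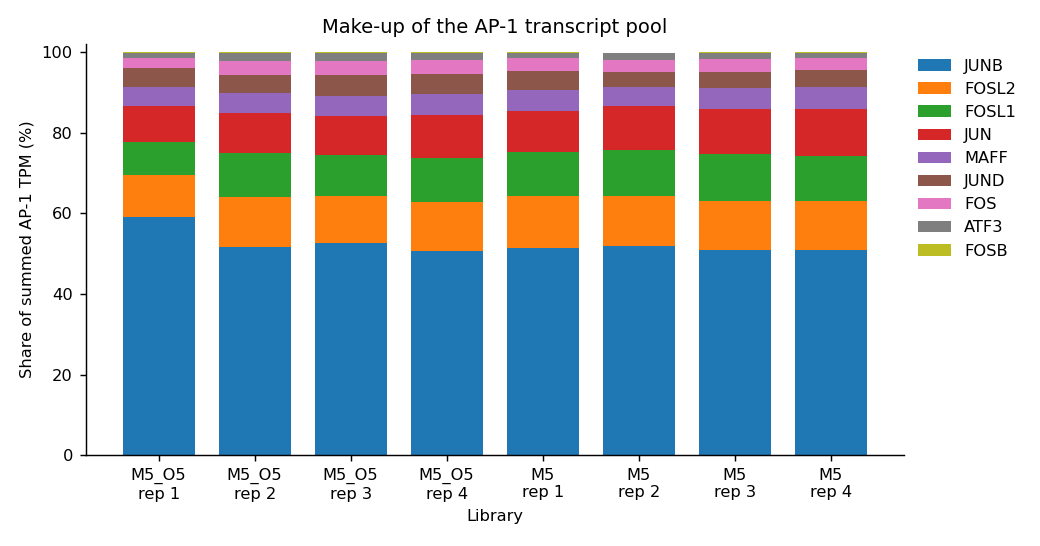
Percent of the summed TPM of the 9 analysed AP-1 members that each member contributes, by library. JUNB makes up 50.7% to 59.1% in every library, and M5_O5 replicate 1 has the largest JUNB share.

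The table lists 27 transcripts of the 9 members, of which 19 were tested and 1 passed among 38929 transcripts, where 3.06% passed, 1.49% as lower and 1.58% as higher. That transcript was NM_005253 of FOSL2, with a log2 difference of -0.29 (SE 0.06, edgeR adjusted p = 0.0484), and it held 95.6% to 97.9% of that gene's counts. The call is not stable: with each library left out in turn 0 member transcripts passed, except without M5 replicate 1, where 4 did, and 0 passed with library size only, without a filter or with the level trend removed. One transcript also led in FOSL1 (NM_005438, 81.1% to 87.6% of the gene's counts), ATF3 (NM_001674, 78.9% to 87.7%) and MAFF (NM_012323, 97.7% to 100%). A minor FOSL1 transcript, NM_001300856, made up 1.64% ± 0.546 of FOSL1 counts in M5_O5 and 3.23% ± 0.45 in M5 (SD, n = 4), and these shares did not overlap. It was named after the shares were seen, as the only transcript of the 27 without overlap. How often this occurs over all transcripts was not computed. Its own log2 difference of -1.30 (SE 0.37) did not pass (edgeR adjusted p = 0.125), and isoform counts this low depend on how reads were assigned. The 2 JUND transcripts had identical counts in every library, so that they carry no information on isoforms. JUN, JUNB and FOS have 1 listed transcript each.

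Genes around the family were described from 6 lists, each read against the 17.6% of all genes that were lower and the 19.5% that were higher. Each list also holds genes at a log2 CPM of 6.07 or more, where 38.2% of genes were lower and 8.78% higher. The lists were not matched for level. Dimer partners of AP-1 proteins moved in both directions. Of 18, 13 were tested, 4 were higher, 3 were lower and the median log2 difference was -0.02. JDP2, a repressor that pairs with JUN proteins, had the largest difference: 8.20, 15.1, 16 and 10.5 CPM in M5_O5 and 6.57, 3.85, 3.42 and 3.43 CPM in M5. The groups were apart although both varied, and the log2 difference was 1.54 (SE 0.23, edgeR adjusted p = 0.000184). NFE2 and NFE2L3, which pair with small MAF proteins, were higher by 0.48 and 0.43 on the log2 scale. MAF, a large MAF protein, had 34.9 ± 1.04 CPM in M5_O5 and 58.5 ± 2.70 CPM in M5 (SD, n = 4 each), a log2 difference of -0.74 (edgeR adjusted p = 1.02e-06). MAFK, the small MAF relative of MAFF, and BACH1, a repressor that pairs with small MAFs, were lower by the test with log2 differences of -0.30 and -0.23, and neither passed with library size only or on the TPM scale.

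The signalling genes that act on AP-1 had small differences, and the calls depended on the scaling. Of 23 MAP kinase pathway genes, 22 were tested, 7 were lower and 1 was higher, with a median log2 difference of -0.12. MAPK12, which encodes p38γ, was higher by 0.41. MAPK7 (ERK5), MAP2K2 (MEK2) and MAP3K1 (MEKK1) had log2 differences of -0.27, -0.24 and -0.24. With library size only or on the TPM scale 0 of the 22 were lower by the edgeR or limma test, and 4 were lower without M5_O5 replicate 2, M5_O5 replicate 3, M5 replicate 3 or M5 replicate 4. MAPK7 also lost its call without M5 replicate 2. Of 10 factors known to control FOS and JUN genes, 9 were tested, 6 were lower and 0 were higher, with a median of -0.19. MEF2A and the SRF partners ELK4 and ELK3 had log2 differences of -0.38, -0.35 and -0.29. Here 2 were lower with library size only and 0 on the TPM scale, and the count of higher genes was 1 at an unadjusted p under 0.05 in edgeR, 0 with DESeq2 and 1 with limma. Of 8 genes of JUN protein turnover, all tested, 4 were lower and 0 were higher, with a median of -0.12. Among these TRIB1, an adaptor of the COP1 ubiquitin ligase, had a log2 difference of -0.38, FBXW7, a ubiquitin ligase subunit that binds JUN, one of -0.36, and ITCH, a ligase for JUNB and JUN, one of -0.34. With library size only 2 of the 8 were lower, and 1 on the TPM scale, and the count of higher genes was 0 at an unadjusted p under 0.05 in edgeR and 0 with DESeq2 and limma.

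Other immediate-early genes did not move as a block either. Of 23, 20 were tested, 6 were lower and 2 were higher, with a median log2 difference of -0.26. The matrix-associated protein gene CCN1 was higher by 0.69 and MYC by 0.47 on the log2 scale. MYC reached 116 ± 8.87 CPM in M5_O5 and 83.4 ± 6.64 CPM in M5 (SD, n = 4), with edgeR adjusted p = 0.000156. IER2, ZFP36, which encodes an mRNA-destabilising protein, and IER5 had log2 differences of -0.42, -0.37 and -0.34. On the TPM scale 3 of the 20 were lower.

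**Figure D5:**
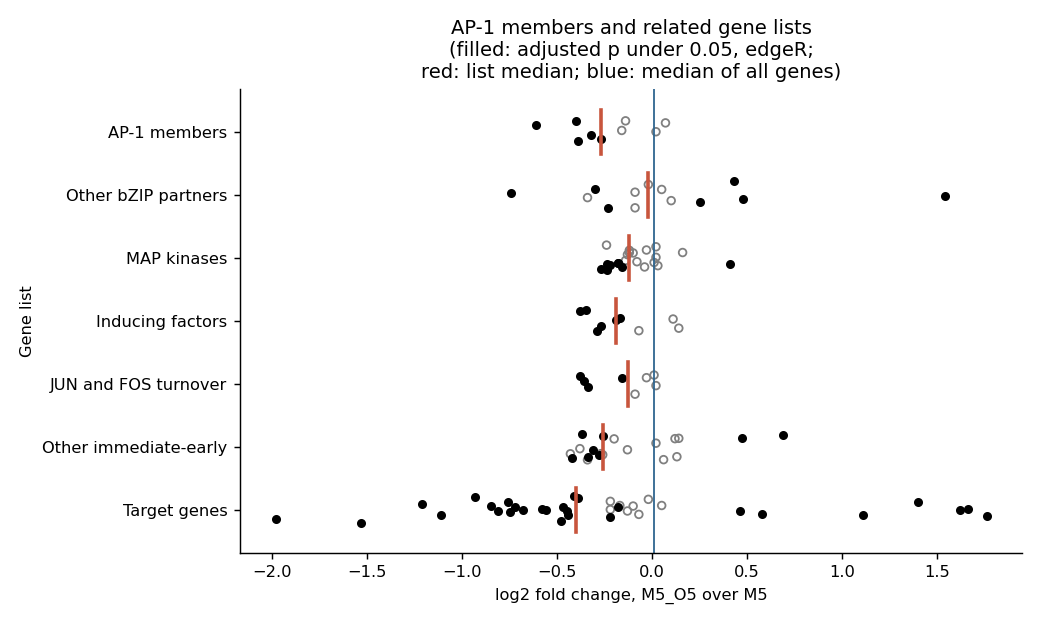
Log2 difference (M5_O5 minus M5) of every tested gene in the members and the 6 lists, with filled points for edgeR adjusted p under 0.05, a red line for each list's median and a blue line for the median of all genes. The keratinocyte targets span -1.98 to 1.76 and have the lowest median, -0.40.

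Keratinocyte genes known as AP-1 targets showed the widest differences of the 6 lists. Of 37, 36 were tested, 21 were lower and 7 were higher, with a median log2 difference of -0.40, and with the 2-fold threshold 4 were lower and 5 higher, where 0.33% and 2.87% of all genes were. The matrix metalloproteinases led the lower side. MMP9, a gelatinase, had 27.8, 28.9, 33.0 and 30.2 CPM in M5_O5 and 86.9, 131, 121 and 134 CPM in M5. All 4 M5 libraries were far above all 4 M5_O5 libraries, with a log2 difference of -1.98 (SE 0.11, edgeR adjusted p = 7.79e-08). MMP10 and MMP1, a stromelysin and an interstitial collagenase, had log2 differences of -1.53 and -1.21. On the higher side, CCL2, a monocyte chemokine, reached 72.9 ± 9.15 CPM in M5_O5 and 21.6 ± 6.52 CPM in M5 (SD, n = 4), a log2 difference of 1.76 (edgeR adjusted p = 2.24e-06). AREG, a ligand of the EGF receptor, and IL6 were higher by 1.66 and 1.62. The other 4 higher genes, named after their values were seen, were the chemokine gene CXCL8 (log2 difference 1.40), the protease inhibitor gene SERPINB2 (1.11), the cornified-layer gene FLG (0.58) and the EGF receptor ligand gene EREG (0.46). CCL2, IL6 and CXCL8 are among the genes the study itself singled out in these libraries, and so are not independent of its choice. The count of lower targets stayed between 18 and 24 under the alternatives that keep the threshold.

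The genes whose profiles over the 8 libraries lay nearest to those of JUN and FOSL1 were found by the mean absolute difference of log2(CPM + 1), each profile centred on its own mean. FOSB was not used for this since its mean level was below 10 CPM. For JUN they were MAP3K9, MAPKAPK2 and EHBP1L1, at 0.033, 0.034 and 0.035. For FOSL1 they were BHLHE40, SQOR and PLP2, at 0.036, 0.039 and 0.04. Since they were chosen for these profiles, their log2 differences (-0.46 to -0.33) and their lower value in M5 replicate 1 than in the other M5 libraries follow from the choice and are no separate result.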

How the data were processed

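RNA from 8 HaCaT libraries was sequenced from total RNA. The authors deposited 1 table with an estimated count, a FPKM and a TPM value per RefSeq transcript and library. The study's methods name HISAT2 2.1.0 and StringTie 2.1.5, whereas the submitters' processing notes list HISAT2 2.1.0, Bowtie2 2.2.5 and RSEM 1.2.8 with the mouse build mm10. The rows are human RefSeq transcripts, and the human build is not given in the sources used here. FPKM values were not used. The deposited estimated counts (53.8% were not whole) were summed per Entrez gene over 86639 transcripts, giving 17131 genes, and rounded. Of these, 17072 matched a symbol in the RefSeq table.

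edgeR 4.0.16 in R 4.3.3 was run with TMM scaling, filterByExpr and the quasi-likelihood test (M5_O5 against M5, 4 libraries each, no covariate), with Benjamini-Hochberg adjustment over 12434 genes (common biological coefficient of variation 7.42%). DESeq2 1.42.0 and limma 3.58.1 on log2(TPM + 1) and log2(TPM + 0.1) were among the 18 alternatives, with other scalings and filters, a replicate block, each library left out in turn and removal of the level trend. A 2-fold threshold, as in the study, was added to the count of calls. On simulated counts for 12434 genes edgeR recovered 51 of 60 genes changed 1.5-fold, 69 of 72 changed 2-fold and 66 of 68 changed 3-fold, and called 13 of 12234 unchanged genes. The simulation gave every gene the same coefficient of variation and changed 200 genes, whereas 37.1% of genes passed here. It held no change below 1.5-fold. It therefore does not measure recovery of differences as small as those of JUN, FOSL1, FOSL2 and MAFF (75.7% to 82.9% of the M5 level). Replicates differed by more than sampling noise (chi-square per gene of 2.02 to 16.53), and all were counted.

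The members and lists were chosen with earlier results of these data known. Genes were named by rule: all members, up to 3 genes per list and direction with the largest passing change and a mean of at least 1 CPM, and the 3 genes nearest in profile to the 2 most changed passing members with a mean of at least 10 CPM.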

Additional observations from a re-analysis of the deposited data

Results flagged for a closer look

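In 8 of the 84 groups of 4 libraries checked (each member and named gene in each group), 1 library lay far from the other 3 by Dixon's test at the 95% level, where chance gives about 4.2. M5 replicate 1 was that library in 4 cases, M5_O5 replicate 1 in 2, and M5 replicate 4 and M5_O5 replicate 4 in 1 each. Of the AP-1 members only FOSL1 was among them, with 94.7 CPM in M5_O5 replicate 1 against 116 to 119 CPM in the other M5_O5 libraries. In M5 replicate 1, JDP2 had 6.57 CPM against 3.42 to 3.85, IL6 had 10.7 CPM against 6.79 to 7.38, MMP10 had 786 CPM against 1142 to 1175, and MMP1 had 1639 CPM against 2101 to 2109. TRIB1 had 68.6 CPM in M5_O5 replicate 1 against 73.5 to 74.1 in the others. NFE2 had 8.78 CPM in M5 replicate 4 against 7.17 to 7.25, and NFE2L3 had 11.5 CPM in M5_O5 replicate 4 against 13.6 to 13.8. M5 replicate 1 also had the smallest library. For JDP2, IL6, MMP10 and MMP1 its value lay on the side of the M5_O5 libraries.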

How the results depend on the processing

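FOSB (log2 difference -0.82 to -0.34), JUN (-0.48 to -0.26), FOSL1 (-0.47 to -0.27) and FOSL2 (-0.36 to -0.15) passed as lower under all 18 alternatives, while the 2-fold threshold leaves 0 members and 398 genes. The other alternatives gave 4 to 6 members lower (5 to 6 with each library left out) and 0 higher, and with each library left out 3578 to 5376 genes passed. MAFF (-0.33 to -0.14) did not pass with library size only or on either TPM scale. JUNB turned to 0.01 with the level trend removed, JUND ranged from -0.04 to 0.06 and ATF3 from -0.04 to 0.17 with each library left out. For member transcripts 0 passed with library size only, without a filter and with the trend removed, 3 passed with at least 10 counts in every library, and with each library left out 0 passed except 4 without M5 replicate 1. Of 594 alternative values of the 33 named genes outside the family, 561 kept their call, 33 lost it and 0 changed sign. The replicate numbers pair nothing that the labels state: the deviations of libraries with the same number correlated at 0.278, 0.175, 0.031 and -0.006, and not every library correlated best with its own number. With the replicate block 5 members were lower, 0 were higher and 5255 genes passed. Of the passing genes 81% were higher with log2(TPM + 0.1). FOSB rests on 60 to 101 counts per library, the fewest of the members.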
